A study of Mus musculus with 12 samples.

Results

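The genes described here are the matrix metalloproteinases (Mmp), the ADAMTS proteinases and the tissue inhibitors of metalloproteinases (Timp), in 12 mouse prostate tumours. Members were the rows of the deposited count table whose symbol is Mmp, Adamts or Timp followed by the member number. The rule found 46 of 23479 gene symbols: 23 Mmp genes, 19 Adamts genes and 4 Timp genes. Of these, 40 had enough counts to be tested among 15082 genes.

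RNA was sequenced in bulk from tumours of C57BL/6J mice, 3 in each of 4 groups. Every mouse was injected in the prostate with 100000 PTE-82 cells, described in the labels as expressing TMPRSS2-ERG, in 40 µl of PBS and Matrigel. Perfused mice gave their tumours on day 17. The IgG group is the control. The anti-CSF1 group received an antibody against CSF1, the growth factor that macrophages depend on, on days 9 and 14. The Lupron group received 0.6 mg of Lupron per mouse on day 4, a drug that lowers testosterone through the pituitary. The Lupron/anti-CSF1 group received both treatments on those days. Neither castration nor a genetic change of the host is named, and the sources used here do not say whether the Lupron group also received IgG. All tumours came from the same cell line, so the groups have the line's genotype in common, and the samples are whole tumours with the host's own cells. The labels do not state that each library is from a separate mouse, so p-values measure the spread between these libraries.

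Matrix metalloproteinases are zinc-dependent enzymes that cut collagens, laminin, proteoglycans and many cell-surface proteins. Most are secreted as inactive precursors, and tumour cells, fibroblasts, neutrophils and macrophages can all make them. ADAMTS proteinases are secreted relatives that trim procollagens, cut proteoglycans such as versican and aggrecan, or act on fibrillin microfibrils. TIMP proteins bind the active site of these enzymes and block it. In prostate tumours the balance of the enzymes and their inhibitors is studied for its part in invasion and in remodelling of the stroma.

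The libraries held 20584363 to 29965355 counts, of which the 46 members took 0.102% to 0.374%. IgG replicate 3 stood apart from the other 11 libraries. Its level of 6 proliferation genes was 2.605, as a mean of log2(CPM + 1), against 6.344 to 7.177 elsewhere, and its levels of smooth muscle (9.703), fat (6.618), basal epithelium (7.284) and normal prostate secretion genes (11.63) were the highest of 12. It was the lowest library for 20 of the 40 members tested and the highest for 9. The main results are therefore given with and without it, while some estimates are given with all 12 tumours only. IgG replicate 2 and Lupron replicate 2 came next for smooth muscle (7.907 and 7.26), and Lupron replicate 2 had the highest level of seminal vesicle genes (14.53). Krt8, a keratin that marks luminal epithelial cells, lay between 26.0 and 286 CPM. CPM is the usual read count relative to the scaled library total.

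Across the tumours, the enzymes and inhibitors with the highest levels for their length were Timp1, Mmp9, Mmp13, Timp2 and Mmp14. On the scale of CPM per kilobase of transcript, the median over 12 tumours was 261 for Timp1, a secreted inhibitor of most soluble MMPs, with a range of 11.7 to 469. Mmp9, a gelatinase, had a median of 165 CPM per kilobase, and Mmp13, a collagenase, 113. Timp2 (107 CPM per kilobase) and Mmp14 (99.2), the membrane-anchored enzyme that activates pro-MMP2 together with TIMP2, followed. Neighbours in this order overlapped widely between tumours, since Mmp13 alone ran from 0.240 to 405 CPM per kilobase. Next came Mmp10, Timp3, Mmp7 and Mmp3, with medians from 47.6 to 33.6 CPM per kilobase. The highest ADAMTS gene was Adamts1, a versican- and aggrecan-cutting enzyme, at 12.9 CPM per kilobase. The summed level of the 4 TIMP genes divided by that of the 23 MMP genes, both in CPM per kilobase, lay between 0.510 and 0.956 in 11 tumours and was 2.93 in IgG replicate 3, where the MMP sum was 52.7 against 325 to 1049 elsewhere.

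The study's design asks how the tumour transcriptome responds to the antibody, to Lupron and to both, which gives 7 comparisons. No member passed the test in any of them, by edgeR's quasi-likelihood F test with Benjamini-Hochberg adjustment over all genes tested. For the antibody averaged over Lupron (6 tumours against 6), 0 of 40 members passed, where 1.87% of all genes did, and 7 of 40 (17.5%) had an unadjusted p under 0.05 against 19% of all genes. With Lupron averaged over the antibody, 0 members passed, where 0% of all genes did, and 4 (10%) against 9.06% had an unadjusted p under 0.05. For the interaction, which asks whether the antibody effect differs with Lupron, 0 members passed (all genes 0%), and 5 (12.5%) against 6.77% were under 0.05 unadjusted.

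Anti-CSF1 against IgG had 0 members passing (all genes 0.00663%) and 9 (22.5%, all genes 22.8%) under 0.05 unadjusted. Lupron/anti-CSF1 against Lupron had 0 passing (all genes 0%) and 1 under 0.05 unadjusted (2.5%, all genes 4.26%). Lupron against IgG had 0 passing (all genes 0%) and 6 under 0.05 unadjusted (15%, all genes 16.4%). Lupron/anti-CSF1 against anti-CSF1 had 0 passing (all genes 0%) and 1 under 0.05 unadjusted (2.5%, all genes 1.95%). These comparisons share groups, so their counts are not independent of each other.

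The unadjusted counts depended on single IgG libraries. Without IgG replicate 1, 25 of 42 members (59.5%, all genes 29.6%) were under 0.05 for the averaged antibody effect, 11 (26.2%, all genes 16.5%) for the averaged Lupron effect and 13 (31%, all genes 17.1%) for the interaction. In the same fit 26 (61.9%, all genes 34.7%) were under 0.05 for anti-CSF1 against IgG and 21 (50%, all genes 27.5%) for Lupron against IgG. Without IgG replicate 3 the counts in that order were 9 of 41 (22%, all genes 15.4%), 5 (12.2%, all genes 6.78%), 2 (4.88%, all genes 3.46%), 8 (19.5%, all genes 13.4%) and 2 (4.88%, all genes 5.27%). The members' share against that of all genes was therefore not steady from fit to fit. Over the other 10 fits that leave out a library, the counts were 4 to 10, 1 to 6, 3 to 7, 4 to 10 and 2 to 8. For Lupron/anti-CSF1 against Lupron and against anti-CSF1 they were 0 to 3 over all 12 such fits.

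DESeq2's Wald test, the other tool run, called more genes in each comparison. It passed 3 members for the averaged antibody effect, Mmp15 (lower), Adamts9 and Mmp9 (both higher), where it called 9.4% of all genes. For anti-CSF1 against IgG it passed Mmp9 (higher) and Mmp15, Mmp16, Mmp23, Adamts8 and Adamts15 (lower), where it called 11.5% of all genes. It passed Mmp23 alone for the interaction (1.3% of all genes) and Mmp15 alone for Lupron against IgG (2.8% of all genes). It passed no member for Lupron averaged over the antibody (0.0576% of all genes), Lupron/anti-CSF1 against Lupron (1.51%) or Lupron/anti-CSF1 against anti-CSF1 (0.0314%). Without IgG replicate 1, edgeR passed 9 members for the averaged antibody effect (10.1% of all genes), 16 for anti-CSF1 against IgG (16.8%) and 4 for Lupron against IgG (4.19%). That fit leaves IgG replicates 2 and 3, the IgG libraries highest in smooth muscle and fat genes, to stand for the control. Without IgG replicate 3 the count was 0 in all 7 comparisons. Of all genes, 3.13% then passed for the averaged antibody effect, 1.11% for anti-CSF1 against IgG, 1.38% for Lupron/anti-CSF1 against Lupron and 0% in the other 4.

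Spread between tumours of a group was wide. The median biological coefficient of variation was 0.572 over the 40 members and 0.342 over all genes tested, and without IgG replicate 3 it was 0.4224 and 0.273. Within groups the coefficient was highest for Adamts20 (1.34), a member with few counts, and Mmp13 (1.04), and lowest for Timp3 (0.248) and Timp2 (0.270). Over all tumours the highest Mmp13 level was 1690 times the lowest, the widest range among members with a count in every tumour. Without IgG replicate 3 it was 56.9 times, and the ratios of Mmp17 (75.9 times), Adamts8 (62.3 times) and Mmp1a (60.9 times) were larger. The lowest tumours of Mmp17, Adamts8 and Mmp1a held only 1, 2 and 2 counts, so their ratios are limited by depth. The lowest Mmp13 tumour in that set had 456 counts. Over all tumours the narrowest ranges were those of Timp3 (2.02 times) and Mmp19 (2.14 times). The heat map of the 40 members sets IgG replicate 3 beside the other tumours.

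**Figure D1:**
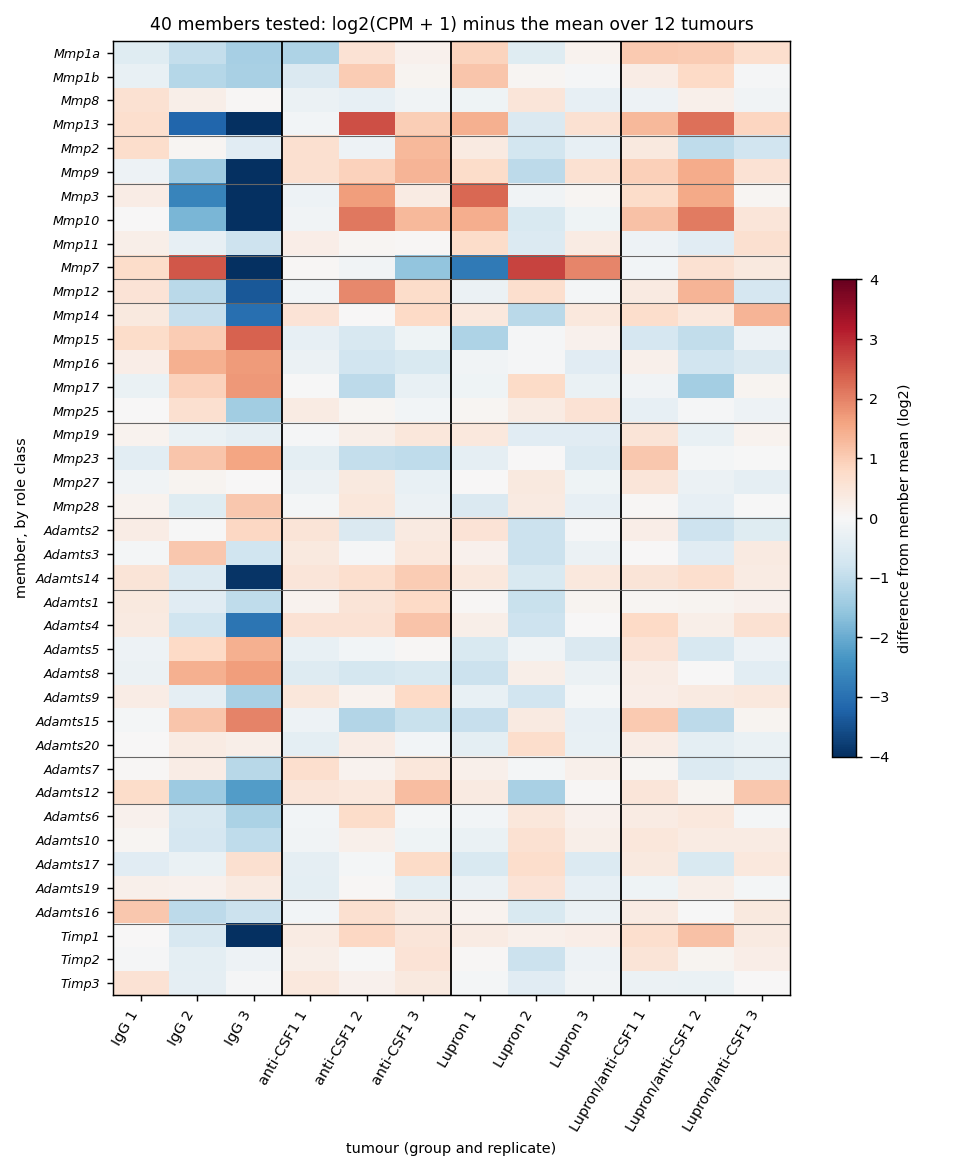
Level of the 40 tested members (rows, by role class, separated by lines) in the 12 tumours (columns, by group), as log2(CPM + 1) minus the member's mean over 12 tumours, with red above and blue below the mean and the colour ending at -4 and 4. IgG replicate 3 is the lowest of 12 for 20 members, and the rows of Mmp13, Mmp3 and Mmp10 are high in anti-CSF1 replicate 2, Lupron replicate 1 and Lupron/anti-CSF1 replicate 2.

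Among the inhibitors, the levels of Timp1 and Timp2 were higher in every tumour with the antibody than in every tumour of the matching group without it, and neither difference passed the test. Of all genes, 11.1% were higher without overlap in anti-CSF1 against IgG and 5.86% in Lupron/anti-CSF1 against Lupron. The share higher in both was not counted. In this and the following sentences CPM values within a group are given in the order of replicates 1, 2 and 3. Timp1 (chromosome X, 20870166 to 20874735) had 186, 117 and 10.4 in IgG, 229.7, 328 and 258 in anti-CSF1, 232, 214 and 222 in Lupron and 295, 414 and 237 in Lupron/anti-CSF1. IgG replicate 3 was lower than any other tumour by more than 10 times, and the Lupron tumours lay close together. The averaged antibody effect on Timp1 was 0.94 ± 0.48 on the log2 scale (adjusted p = 0.309), and 0.67 ± 0.19 without IgG replicate 3 (adjusted p = 0.0999). Its 3 anti-CSF1 tumours lay above all 3 IgG tumours and its 3 Lupron/anti-CSF1 tumours above all 3 Lupron tumours, with log2 differences of 1.38 ± 0.69 and 0.50 ± 0.68 (adjusted p = 0.254 and 1).

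Timp2 (chromosome 11, 118301069 to 118355740), which also takes part in the activation of pro-MMP2, had 380.5, 299 and 337 in IgG, 461, 391 and 577 in anti-CSF1, 402, 215 and 342 in Lupron and 558, 418 and 467 in Lupron/anti-CSF1. IgG replicate 3 was not apart here, and the lowest tumour was Lupron replicate 2. The averaged antibody effect on Timp2 was 0.54 ± 0.19 (adjusted p = 0.17), with 0.54 ± 0.20 without IgG replicate 3 (adjusted p = 0.22). Mean levels of Timp2 were 339 ± 40.9 CPM (SD, n = 3) in IgG, 476 ± 93.9 in anti-CSF1, 319.7 ± 95.6 in Lupron and 481 ± 70.9 in Lupron/anti-CSF1. The separate differences were 0.49 ± 0.26 without Lupron and 0.59 ± 0.26 with it, each between groups that did not overlap (adjusted p = 0.283 and 1). Groups without overlap, higher, held 4 of 40 members in anti-CSF1 against IgG (10%, all genes 11.1%) and 4 in Lupron/anti-CSF1 against Lupron (10%, all genes 5.86%), where Mmp25 alone lay lower (2.5%, all genes 6.93%). With all 12 tumours split by antibody, no member was free of overlap (all genes 0.703% higher and 1.69% lower). The same held for the split by Lupron (all genes 0.152% higher and 0.278% lower).

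Timp3 (chromosome 10, 86300372 to 86349506), the inhibitor that stays bound to the matrix and also blocks ADAM and ADAMTS enzymes, had 299.97, 159 and 198 in IgG, 270.5, 228 and 269 in anti-CSF1, 192, 149 and 184 in Lupron and 171, 167 and 204 in Lupron/anti-CSF1. Its 3 Lupron/anti-CSF1 tumours lay below its 3 anti-CSF1 tumours, while the IgG and Lupron tumours overlapped. Groups without overlap, lower, held Timp3 and Adamts7 there (5%, all genes 5.22%). The averaged Lupron effect on Timp3 was -0.41 ± 0.17 (adjusted p = 0.525), -0.45 ± 0.17 without IgG replicate 3, and its averaged antibody effect 0.14 ± 0.17, with a 95% interval of -0.23 to 0.51. Of the exon bases of Timp3, 21.3% are shared with Syn3 on the other strand, and since the strand setting of the counting is not given, reads of the pair could be mixed. Timp4, the inhibitor best known from heart and fat, was not tested. It had 3, 20 and 1485 counts in the IgG tumours and 0 to 8 in every other tumour. The 1485 counts, 52.9 CPM, were in IgG replicate 3, the library with the highest fat gene level, where Adipoq, a fat cell hormone, stood at 139.5 CPM and Plin1, a lipid droplet protein, at 52.8 CPM. In the 3 anti-CSF1 tumours neither Adipoq nor Plin1 had a count. The part of fat in the Timp4 value was not tested.

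**Figure D2:**
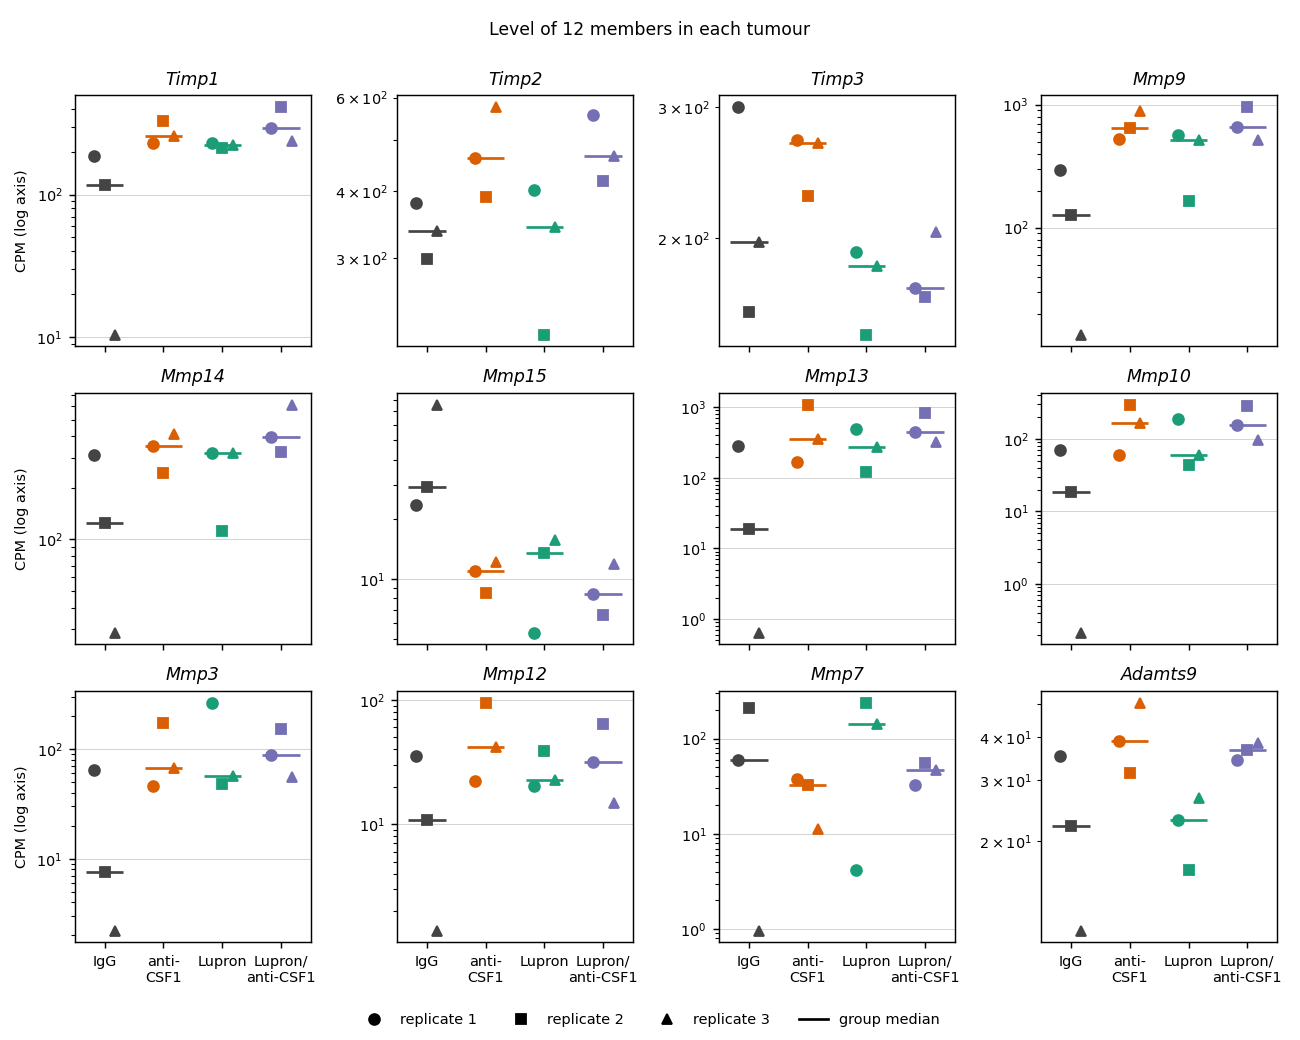
CPM (log axis, own scale in each panel) of 12 members in each of the 12 tumours, with groups along the horizontal axis, a symbol for each replicate and a bar at the group median. Timp1 and Timp2 are above the matching group without the antibody in every antibody tumour, Mmp15 is highest in the IgG tumours, and IgG replicate 3 is the lowest tumour for 9 of the 12 genes shown.

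Of the gelatinases, which cut denatured collagen and basement membrane collagen IV, Mmp9 had the higher level. Mmp9 (chromosome 2, 164940780 to 164955850), made by many tumour cells as well as by macrophages and neutrophils, had 294, 127 and 13.5 in IgG, 528, 645 and 883 in anti-CSF1, 566, 165 and 518 in Lupron and 655, 961 and 515 in Lupron/anti-CSF1. The anti-CSF1 tumours lay above all IgG tumours, while Lupron/anti-CSF1 replicate 3 lay below 2 of the Lupron tumours. Group means were 145 ± 141 CPM (SD, n = 3) in IgG, 685 ± 181 in anti-CSF1, 416 ± 219 in Lupron and 711 ± 228 in Lupron/anti-CSF1. The averaged antibody effect on Mmp9 was 1.51 ± 0.57 (edgeR adjusted p = 0.197, DESeq2 adjusted p = 0.0373), and 1.24 ± 0.35 without IgG replicate 3 (edgeR adjusted p = 0.103). Without Lupron the difference was 2.24 ± 0.82 (adjusted p = 0.15) and with it 0.77 ± 0.79 (adjusted p = 1). The lowest Mmp9 levels were in IgG replicates 2 and 3 and Lupron replicate 2, the libraries with the highest smooth muscle gene levels, and the part of that tissue in the difference was not tested.

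Levels of Mmp9 and of its inhibitor Timp1 were correlated across tumours. Over the 11 tumours without IgG replicate 3, Pearson's r of their log2(CPM + 1) was 0.84 and Spearman's rho 0.90 (permutation p = 0.00059 and 0.00042, adjusted over 39 relations 0.0033 for each). Pearson's r was 0.82 without the 2 tumours farthest from the median of Mmp9, 0.95 with IgG replicate 3 and 0.59 on deviations from group means. The other gelatinase, Mmp2, which fibroblasts make, had 41.1, 26.0 and 17.8 in IgG, 38.9, 21.5 and 61.4 in anti-CSF1, 32.1, 14.6 and 19.3 in Lupron and 32.7, 11.7 and 14.0 in Lupron/anti-CSF1. Anti-CSF1 replicate 3 was the highest tumour and the groups overlapped. Its difference between Lupron/anti-CSF1 and anti-CSF1 was -1.06 ± 0.50 (adjusted p = 1).

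Among the membrane-type MMPs, which are anchored at the cell surface, Mmp14 had the highest level for its length and Mmp15 the lowest p of all members over the 7 comparisons. Mmp15 (chromosome 8, 95352268 to 95375080) had 23.6, 29.1 and 75.7 in IgG, 11.0, 8.53 and 12.2 in anti-CSF1, 5.38, 13.5 and 15.8 in Lupron and 8.45, 6.61 and 11.9 in Lupron/anti-CSF1. All 3 IgG tumours lay above every tumour of the other 3 groups, with IgG replicate 3 by far the highest. Of all genes, 12.8% lay lower without overlap in anti-CSF1 against IgG and 8.53% in Lupron against IgG. The share of all genes with IgG above every other group was not counted. Group means were 42.8 ± 28.6 CPM (SD, n = 3) in IgG, 10.6 ± 1.86 in anti-CSF1, 11.5 ± 5.46 in Lupron and 8.98 ± 2.67 in Lupron/anti-CSF1. The difference of anti-CSF1 from IgG was -2.02 ± 0.50 by edgeR (adjusted p = 0.0903, DESeq2 0.00187), and -1.32 ± 0.39 without IgG replicate 3 (adjusted p = 0.166). That of Lupron from IgG was -1.89 ± 0.49 (adjusted p = 0.284, DESeq2 0.018), and -1.19 ± 0.39 without that library (adjusted p = 0.8). Both differences share the IgG tumours.

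With all 12 tumours, the averaged effects on Mmp15 were -1.19 ± 0.34 for the antibody (adjusted p = 0.117) and -1.06 ± 0.34 for Lupron (adjusted p = 0.525). Both averages take in the high IgG tumours, while the remaining groups overlapped one another. Smooth muscle genes were also at their highest in IgG replicate 3. Of the 8 smooth muscle markers all were measured and 0 passed by edgeR for either averaged effect, while DESeq2 called 7 lower for the averaged antibody effect and 0 for the averaged Lupron effect. Their summed level was 634 to 11722 CPM in IgG, 424 to 629.9 in anti-CSF1, 380 to 1651 in Lupron and 417 to 783 in Lupron/anti-CSF1. The part of that tissue in the Mmp15 values was not tested.

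Mmp14 (chromosome 14, 54431612 to 54445364) had 312, 125 and 28.6 in IgG, 352, 243 and 414 in anti-CSF1, 320.4, 112 and 322 in Lupron and 394, 322 and 612 in Lupron/anti-CSF1. Its Lupron/anti-CSF1 tumours lay above its Lupron tumours by a narrow margin, and its anti-CSF1 and IgG tumours overlapped. The averaged antibody effect was 0.97 ± 0.48 (adjusted p = 0.298), and 0.72 ± 0.34 without IgG replicate 3 (adjusted p = 0.341). Over 11 tumours, Mmp14 and the level of 10 fibroblast genes had r = 0.27 and rho = 0.52 (permutation p = 0.43 and 0.11, adjusted 0.56 and 0.21), with r = 0.47 without the 2 tumours farthest from the median and 0.68 with IgG replicate 3. The remaining membrane-type members were low, with medians of 0.492 CPM for Mmp16, 1.42 for Mmp17 and 3.04 for Mmp25, and Mmp24 had 26 counts in all.

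Of the 23 Mmp genes, 10 lie in a row on chromosome 9, from 7272514 to 7699585 (GRCm38, GENCODE vM21), a span of 427.1 kb, in the order Mmp13, Mmp12, Mmp1b, Mmp3, Mmp1a, Mmp10, Mmp8, Mmp27, Mmp20 and Mmp7. They include the interstitial collagenases, which cut fibrillar collagen, the stromelysins, which cut proteoglycans and activate other MMPs, matrilysin and macrophage elastase. Several of these genes are known targets of AP-1, the Fos and Jun dimer. Promoter windows of 250 bases before to 50 after the gene start were available for 32 of the 46 members (RefSeq, GRCm38.p6). The members without a window, Mmp9 and Mmp2 among them, lie outside the cluster and were not searched. The AP-1 letters TGAGTCA or their reverse complement TGACTCA, searched on both strands, were in the windows of 7 of the 10 clustered members, in none of the other 22 members with a window, and in at least 1 window of 5.95% of the 27025 genes that have one. Mmp12 and Mmp7 each also have a window without them. A match is a description of these letters only.

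The stretches that hold those letters are shown because 7 of the 10 clustered genes have them ahead of an annotated start. They run 5′ to 3′ on the gene's strand, with the AP-1 letters in capitals. Each ends before an annotated exon of its own gene and overlaps none of that gene's exons. Overlap with exons of other genes was not checked. Coordinates are chr9:7272404-7272513 for Mmp13, chr9:7347264-7347373 for Mmp12, chr9:7388048-7388136 (minus strand) for Mmp1b, chr9:7445712-7445821 for Mmp3, chr9:7464031-7464140 for Mmp1a, chr9:7502232-7502341 for Mmp10 and chr9:7691980-7692089 for Mmp7, on the plus strand unless stated. The Mmp12 stretch belongs to the later of its RefSeq starts and lies inside the gene, in an intron of the transcripts that begin earlier, and the window at the earlier start lacks the letters.
Mmp13: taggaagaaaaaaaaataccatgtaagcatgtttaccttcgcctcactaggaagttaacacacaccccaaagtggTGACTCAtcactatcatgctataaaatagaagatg
Mmp12: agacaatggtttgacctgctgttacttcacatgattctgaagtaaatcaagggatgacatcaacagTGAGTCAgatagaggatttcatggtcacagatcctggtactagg
Mmp1b: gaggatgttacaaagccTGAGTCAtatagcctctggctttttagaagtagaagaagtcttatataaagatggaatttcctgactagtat
Mmp3: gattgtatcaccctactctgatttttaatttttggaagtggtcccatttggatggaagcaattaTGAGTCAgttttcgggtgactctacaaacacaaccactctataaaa
Mmp1a: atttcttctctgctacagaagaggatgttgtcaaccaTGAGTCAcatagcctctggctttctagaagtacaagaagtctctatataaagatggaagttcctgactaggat
Mmp10: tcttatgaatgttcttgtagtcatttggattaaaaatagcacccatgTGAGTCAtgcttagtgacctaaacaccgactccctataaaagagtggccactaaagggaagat
Mmp7: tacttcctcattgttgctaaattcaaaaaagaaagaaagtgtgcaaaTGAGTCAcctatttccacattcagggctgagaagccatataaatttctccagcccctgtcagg
The 3 clustered members whose windows lacked the letters were Mmp8, Mmp27 and Mmp20.

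The collagenase Mmp13 and the stromelysins Mmp10 and Mmp3 varied together from tumour to tumour, largely within groups. Mmp13 had 283, 19.0 and 0.641 in IgG, 166, 1083 and 358 in anti-CSF1, 483, 121 and 271 in Lupron and 438, 829 and 323 in Lupron/anti-CSF1. In each group the tumours spread over several-fold, with anti-CSF1 replicate 2 and Lupron/anti-CSF1 replicate 2 the highest and IgG replicates 2 and 3 the lowest. The averaged antibody effect was 1.64 ± 0.97 (adjusted p = 0.373), and 1.34 ± 0.72 without IgG replicate 3 (adjusted p = 0.421). Mmp10 had 69.1, 18.4 and 0.214 in IgG, 60.6, 295 and 167 in anti-CSF1, 186, 44.0 and 60.1 in Lupron and 152, 286 and 94.6 in Lupron/anti-CSF1. The same 2 tumours were highest, and the averaged antibody effect was 1.73 ± 0.86 (adjusted p = 0.299), or 1.43 ± 0.57 without IgG replicate 3 (adjusted p = 0.267). Mmp3 had 64.9, 7.56 and 2.21 in IgG, 45.8, 171 and 66.8 in anti-CSF1, 265, 48.1 and 56.3 in Lupron and 88.4, 153 and 56.2 in Lupron/anti-CSF1. Its highest tumour was Lupron replicate 1, and its averaged antibody effect was 0.81 ± 0.74 (adjusted p = 0.552).

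Over the 11 tumours without IgG replicate 3, Mmp13 and Mmp10 had r = 0.94 and rho = 0.98 (permutation p = 1e-05 for each, the smallest that 100000 permutations can give, adjusted 0.00039). The value was 0.93 without the 2 tumours farthest from the median of Mmp13, 0.91 on deviations from group means and 0.98 with IgG replicate 3. Mmp13 and Mmp3 had r = 0.93 and rho = 0.94 (permutation p = 0.0002 and 8e-05, adjusted 0.0016 for each), 0.77 without the 2 farthest tumours, 0.94 within groups and 0.96 with IgG replicate 3. These relations hold within groups as well as across them. Of the 36 pairs among the 9 tested cluster members, 13 had an adjusted permutation p under 0.05 by Pearson, 12 of them positive. By Spearman 12 pairs did, with 11 passing by both. The share of pairs of other genes that pass was not determined, so whether the count is particular to the cluster was not tested. All 12 tumours come from the same cell line, and the points share library preparation and depth.

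Mmp1a and Mmp1b, the mouse counterparts of interstitial collagenase, were low, with medians of 1.79 and 1.50 CPM, and neither had a count in IgG replicate 3. Mmp1a is annotated as a polymorphic pseudogene. Whether reads of these related genes were split between them was not tested. Mmp1b and Mmp13 had r = 0.86 and rho = 0.85 (permutation p = 0.00042 and 0.0013, adjusted 0.0027 and 0.0087), 0.71 without the 2 farthest tumours and 0.85 within groups. All 3 Lupron tumours lay above the IgG tumours for Mmp1a and Mmp1b. For Mmp1a the margin was very narrow, with 0.803 CPM in Lupron replicate 2 and 0.799 CPM in IgG replicate 1. For Mmp1b the log2 difference was 2.66 ± 1.18 (adjusted p = 0.299), and 2.08 ± 0.99 without IgG replicate 3 (adjusted p = 0.8). Groups without overlap, higher, held 3 members in this comparison (7.5%, all genes 11.1%).

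**Figure D3:**
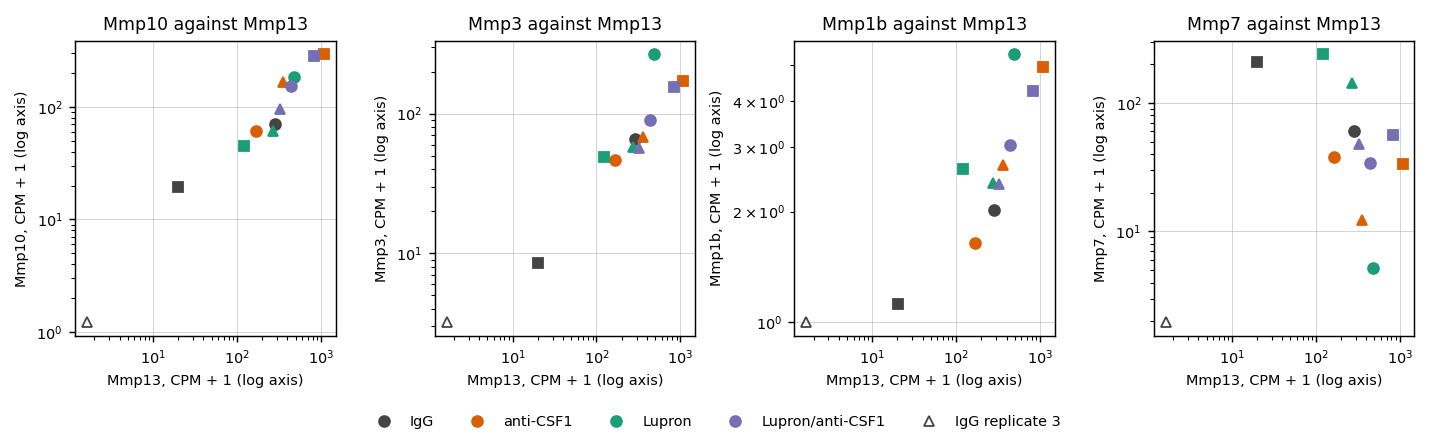
CPM + 1 on log axes of 4 chromosome 9 members against Mmp13 in each tumour, coloured by group, with IgG replicate 3 as an open triangle and the other symbols marking the replicate number (circle 1, square 2, triangle 3). Mmp10, Mmp3 and Mmp1b go up with Mmp13 (r = 0.94, 0.93 and 0.86 over 11 tumours), while Mmp7 does not.

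The matrilysin gene was high in other tumours. Mmp7 (chromosome 9, 7692090 to 7699585), which epithelial cells make and which lacks the hemopexin domain of most MMPs, had 59.7, 207 and 0.961 in IgG, 37.2, 32.4 and 11.3 in anti-CSF1, 4.19, 238 and 143 in Lupron and 32.8, 54.9 and 46.9 in Lupron/anti-CSF1. It was highest in IgG replicate 2 and Lupron replicates 2 and 3, and low in Lupron replicate 1 and IgG replicate 3. The averaged antibody effect on Mmp7 was -1.62 ± 0.97 (adjusted p = 0.374), and -1.91 ± 0.78 without IgG replicate 3 (adjusted p = 0.286). Mmp10 and Mmp7 had r = -0.69 and rho = -0.77 over 11 tumours (permutation p = 0.017 and 0.0076, adjusted 0.044 and 0.029), -0.66 without the 2 farthest tumours and -0.65 within groups. With IgG replicate 3, where both genes were near 0, r was 0.26, so the relation rests on leaving that library out.

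The correlation of Mmp7 with the mean level of 6 seminal vesicle genes was r = 0.70 and rho = 0.63 (permutation p = 0.015 and 0.043, adjusted 0.044 and 0.11), with r = 0.59 without the 2 farthest tumours, 0.74 within groups and 0.77 with IgG replicate 3. By rank it missed the threshold after adjustment. Summed over those genes the level was 438 to 104955 CPM in IgG, 248 to 94384 in anti-CSF1, 9255 to 368016 in Lupron and 3566 to 72064 in Lupron/anti-CSF1. Normal prostate secretion genes summed to 10307, 9266 and 4857 CPM in IgG replicate 2 and Lupron replicates 2 and 3. These were the tumours highest in Mmp7. The same sum was 49123 CPM in IgG replicate 3, where Mmp7 was lowest, and 11.8 to 1486 CPM in the remaining tumours. Different genes made up these sums. In IgG replicate 3 it was mostly Sbp (45167 CPM), with Pbsn at 1538 CPM. In IgG replicate 2 and Lupron replicates 2 and 3 it was mostly Pbsn (10225, 9212 and 4821 CPM). The part of seminal vesicle or normal prostate tissue in the Mmp7 values was not tested.

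Csf1r and most macrophage markers fell with the antibody, while the estimate for macrophage elastase was positive and did not pass the test. The difference between these effects was not tested. Mmp12 (chromosome 9, 7344381 to 7369499), named for its elastin-cutting activity in macrophages, had 35.7, 10.9 and 1.39 in IgG, 22.3, 95.1 and 41.4 in anti-CSF1, 20.3, 38.8 and 22.7 in Lupron and 31.6, 63.9 and 14.9 in Lupron/anti-CSF1. Csf1r, the receptor of CSF1 and a macrophage marker, had 113, 148 and 51.9 in IgG, 27.1, 10.9 and 25.3 in anti-CSF1, 139, 80.5 and 106 in Lupron and 24.0, 15.1 and 19.8 in Lupron/anti-CSF1 CPM. Every tumour with the antibody lay below every tumour without it for Csf1r, and the averaged antibody effect was -2.38 ± 0.31 (edgeR adjusted p = 0.00798), or -2.54 ± 0.25 without IgG replicate 3 (adjusted p = 0.000178). For Mmp12 the averaged antibody effect was 1.08 ± 0.64, with a 95% interval of -0.33 to 2.49 (adjusted p = 0.37), and 0.81 ± 0.49 without IgG replicate 3 (adjusted p = 0.481). Its separate differences were 1.73 ± 0.92 without Lupron and 0.43 ± 0.90 with it (adjusted p = 0.278 and 1). The latter was -0.23 without Lupron/anti-CSF1 replicate 2.

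Of 12 macrophage markers 11 were measured, and 8 of the 11 fell with the antibody (1.79% of all genes did), while 0 rose. Those that fell were Csf1r, Cd68, Mrc1, C1qa, C1qb, C1qc, Fcgr1 and Msr1, with log2 changes from -2.46 (C1qb) to -1.83 (Cd68), and their median with Cd163, Marco and Mertk included was -2.12. Summed, the 11 markers stood at 398 to 1274 CPM in IgG and 965 to 1249 in Lupron, against 165 to 305 in anti-CSF1 and 177 to 249.97 in Lupron/anti-CSF1. In bulk tumours fewer macrophages and less RNA per macrophage cannot be told apart. The tumour with the highest Mmp12, anti-CSF1 replicate 2, had the lowest Csf1r. Mmp12 was highest with its neighbour Mmp13 in the same tumour, and over 11 tumours the pair had r = 0.71 and rho = 0.54 (permutation p = 0.014 and 0.094, adjusted 0.044 and 0.19), which dropped to r = 0.29 without the 2 tumours farthest from the median and so rests on them. Its r was 0.90 with IgG replicate 3. Mmp12 and Mmp1b overlap by 157 exon bases on opposite strands, so a few of their reads could be mixed.

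**Figure D4:**
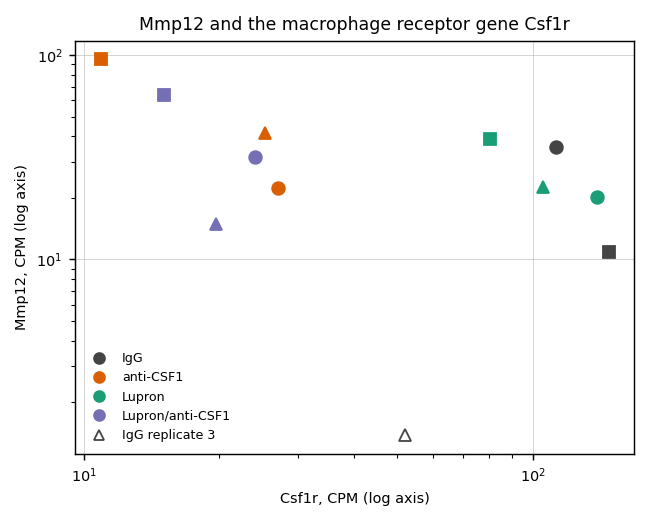
Mmp12 against Csf1r in CPM on log axes, with a point for each tumour, coloured by group, IgG replicate 3 open, and the symbol marking the replicate (circle 1, square 2, triangle 3). The 6 antibody tumours lie at 10.9 to 27.1 CPM of Csf1r and at 14.9 to 95.1 CPM of Mmp12, and the 6 tumours without the antibody at 51.9 to 148 and 1.39 to 38.8 CPM.

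Neutrophil collagenase was scarcely measured. Mmp8 had 24, 11 and 8 counts in IgG, 2, 0 and 4 in anti-CSF1, 3, 13 and 0 in Lupron and 2, 8 and 4 in Lupron/anti-CSF1. The anti-CSF1 tumours lay below the IgG tumours, at a depth where 3 counts, the limit that a count of 0 allows, are 0.101 to 0.172 CPM. Neutrophil markers were low as well: 9 of 10 were measured, and their summed level was 5.70 to 23.9 CPM in IgG, 8.46 to 49.7 in anti-CSF1, 10.7 to 28.8 in Lupron and 8.78 to 31.5 in Lupron/anti-CSF1. The granule genes Mpo and Elane had 13 and 15 counts over all tumours, and 0 of the 6 neutrophil markers tested passed for the averaged antibody effect. Of the other MMPs, Mmp19, a widely expressed enzyme, had 8.64, 6.30 and 5.87 in IgG, 7.48, 9.34 and 11.1 in anti-CSF1, 10.8, 5.39 and 5.38 in Lupron and 11.5, 6.08 and 8.74 in Lupron/anti-CSF1. Its levels stayed within 2.14 times across tumours. For Mmp19, 22.3% of the exon bases are shared with Tmem198b on the other strand. Mmp11, Mmp27 and Mmp28 had medians of 4.07, 0.300 and 3.83 CPM.

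Mmp23, a membrane-bound enzyme with an unusual precursor, had the lowest p for the interaction. It had 2.28, 8.47 and 12.0 in IgG, 2.35, 1.23 and 1.17 in anti-CSF1, 2.37, 3.38 and 2.01 in Lupron and 8.14, 3.09 and 3.31 in Lupron/anti-CSF1. The highest tumours were IgG replicates 2 and 3 and Lupron/anti-CSF1 replicate 1. The antibody difference was -2.26 ± 0.63 without Lupron (adjusted p = 0.0953) and 0.91 ± 0.61 with it (adjusted p = 1), and the difference of these differences was 3.16 ± 0.88 (edgeR adjusted p = 0.488, DESeq2 0.0355), or 2.66 ± 0.84 without IgG replicate 3 (adjusted p = 1). All 3 Lupron/anti-CSF1 tumours lay above the anti-CSF1 tumours, a log2 difference of 1.61 ± 0.62 (adjusted p = 1), where groups without overlap, higher, held 4 members (10%, all genes 4.75%). Lupron against IgG gave -1.56 ± 0.62 (adjusted p = 0.284).

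Of the aggrecan- and versican-cutting ADAMTS genes, Adamts9, Adamts4 and Adamts1 had positive antibody estimates and Adamts5, Adamts8, Adamts15 and Adamts20 negative ones, none of which passed by edgeR. Adamts9 (chromosome 6, 92772699 to 92943492) had 35.3, 22.0 and 11.0 in IgG, 39.0, 31.5 and 50.5 in anti-CSF1, 23.0, 16.4 and 26.6 in Lupron and 34.3, 36.6 and 38.6 in Lupron/anti-CSF1. Every Lupron/anti-CSF1 tumour lay above the Lupron tumours, while IgG replicate 1 reached the level of the anti-CSF1 tumours. Its averaged antibody effect was 0.78 ± 0.25 (edgeR adjusted p = 0.154, DESeq2 0.0437), and 0.61 ± 0.19 without IgG replicate 3 (adjusted p = 0.127). With Lupron in both groups it was 0.73 ± 0.36 (adjusted p = 1). Adamts4 had 33.8, 14.8 and 2.60 in IgG, 40.2, 40.2 and 59.4 in anti-CSF1, 31.4, 14.3 and 26.4 in Lupron and 46.8, 31.1 and 41.2 in Lupron/anti-CSF1. Its anti-CSF1 tumours lay above the IgG tumours, and the averaged antibody effect was 1.09 ± 0.46 (adjusted p = 0.233), or 0.83 ± 0.26 without IgG replicate 3 (adjusted p = 0.143). Adamts1 had 77.0, 42.1 and 28.0 in IgG, 64.1, 84.0 and 102 in anti-CSF1, 60.4, 31.1 and 63.1 in Lupron and 61.5, 62.5 and 65.4 in Lupron/anti-CSF1. Anti-CSF1 replicate 3 was highest, and the averaged antibody effect was 0.53 ± 0.26 (adjusted p = 0.287).

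Adamts5, a main aggrecan-cutting enzyme, had 13.5, 28.0 and 43.1 in IgG, 12.4, 14.4 and 16.0 in anti-CSF1, 9.94, 14.0 and 10.1 in Lupron and 23.2, 9.55 and 13.4 in Lupron/anti-CSF1. IgG replicates 2 and 3 were the highest tumours, and Lupron against IgG gave -1.32 ± 0.42 (adjusted p = 0.284), or -0.87 ± 0.38 without IgG replicate 3 (adjusted p = 0.8). Adamts8 had 0.647, 4.22 and 5.23 in IgG, 0.374, 0.190 and 0.284 in anti-CSF1, 0.0676, 1.32 and 0.660 in Lupron and 1.41, 0.960 and 0.448 in Lupron/anti-CSF1. The same 2 IgG tumours were highest, and the anti-CSF1 tumours all lay below the IgG tumours. Its antibody difference without Lupron was -3.54 ± 1.05 (edgeR adjusted p = 0.1, DESeq2 0.00476), -3.07 ± 1.10 without IgG replicate 3 (adjusted p = 0.242), and the interaction 4.02 ± 1.40 (adjusted p = 0.599). Adamts15 had 1.67, 5.13 and 10.3 in IgG, 1.46, 0.237 and 0.533 in anti-CSF1, 0.473, 2.58 and 1.25 in Lupron and 4.77, 0.373 and 2.03 in Lupron/anti-CSF1. It too was highest in IgG replicate 3, and the interaction was 3.67 ± 1.42 (adjusted p = 0.661), or 2.93 ± 1.39 without that library (adjusted p = 1).

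The 9 members with their highest level in IgG replicate 3 were Mmp15, Mmp16, Mmp17, Mmp23, Mmp28, Adamts2, Adamts5, Adamts8 and Adamts15. The summed fat markers, 5 of 5 measured, were 31.7 to 1082 CPM in IgG, 18.9 to 61.9 in anti-CSF1, 27.1 to 48.9 in Lupron and 32.1 to 139.7 in Lupron/anti-CSF1. The summed basal epithelium markers, 4 of 4 measured, were 18.4 to 1308 CPM in IgG, 8.21 to 16.4 in anti-CSF1, 7.88 to 24.5 in Lupron and 10.6 to 37.9 in Lupron/anti-CSF1. In which of these cells the members were transcribed was not tested. Groups without overlap, lower, held 6 of 40 members in anti-CSF1 against IgG (15%, all genes 12.8%) and 2 in Lupron against IgG (5%, all genes 8.53%).

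The remaining ADAMTS classes showed no member past edgeR's threshold. Adamts14, which trims the amino end of procollagens, had 62.9, 29.6 and 1.92 in IgG, 60.9, 69.8 and 87.7 in anti-CSF1, 58.6, 28.2 and 58.6 in Lupron and 61.7, 70.1 and 54.1 in Lupron/anti-CSF1. IgG replicate 3 was far below the rest, and the averaged antibody effect was 0.78 ± 0.55 with that library and 0.50 ± 0.24 without it (adjusted p = 0.442 and 0.355). Adamts12, which cuts cartilage oligomeric matrix protein, had 88.6, 19.0 and 10.4 in IgG, 75.2, 71.9 and 127 in anti-CSF1, 69.3, 21.3 and 55.4 in Lupron and 74.8, 57.0 and 114 in Lupron/anti-CSF1. Its averaged antibody effect was 0.98 ± 0.49 (adjusted p = 0.299), and 0.76 ± 0.42 without IgG replicate 3, with IgG replicates 2 and 3 and Lupron replicate 2 the lowest tumours.

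Of the fibrillin-associated enzymes, Adamts6 had 19.5, 10.8 and 6.59 in IgG, 16.0, 29.8 and 16.4 in anti-CSF1, 15.9, 24.2 and 19.7 in Lupron and 22.1, 23.5 and 16.5 in Lupron/anti-CSF1. Its groups overlapped, with an averaged antibody effect of 0.41 ± 0.27 (adjusted p = 0.423). Adamts10 had 14.5, 8.10 and 6.12 in IgG, 12.3, 15.9 and 11.9 in anti-CSF1, 11.0, 21.2 and 16.2 in Lupron and 18.7, 17.3 and 17.3 in Lupron/anti-CSF1. Every Lupron/anti-CSF1 tumour lay above the anti-CSF1 tumours, and the averaged Lupron effect was 0.58 ± 0.23 (adjusted p = 0.525), or 0.46 ± 0.21 without IgG replicate 3 (adjusted p = 0.708). Adamts16 was low, with 5.02, 0.376 and 0.570 in IgG, 1.67, 3.51 and 2.67 in anti-CSF1, 2.16, 0.860 and 1.42 in Lupron and 2.58, 1.81 and 2.75 in Lupron/anti-CSF1. The highest tumour was IgG replicate 1 and the lowest IgG replicate 2. Adamts13, the von Willebrand factor protease made mainly in liver, had 7 counts in all, 6 of them in Lupron replicate 1. Of the untested members, Adamts18 and Mmp24 had 26 counts each, Mmp20, the tooth enamel enzyme, 74 counts with 32 each in IgG replicate 2 and Lupron replicate 2, and Mmp21 none in any tumour.

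Over all 40 members the averaged antibody estimates had a median of 0.19 on the log2 scale, against 0.02 over all genes tested, with 25 positive and 15 negative (all genes 52.2% positive). Without IgG replicate 3 the medians were 0.17 and 0.04, with 23 positive and 18 negative (56.1% positive, all genes 54.8%). The 3 tested inhibitors were positive in both fits, and 4 of the 5 tested membrane-type MMPs, all but Mmp14, were negative in both. For Lupron averaged over the antibody, the medians were 0.03 for the members and -0.02 for all genes, with 21 positive and 19 negative (all genes 47.7% positive). Without IgG replicate 3 the members' median for Lupron turned to -0.08 (all genes -0.01), with 18 positive and 23 negative (all genes 48.7% positive). These are counts of estimates, none of which passed edgeR's test. The plot of antibody estimates shows that most intervals crossed 0 and that they narrowed for many members without IgG replicate 3.

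**Figure D5:**
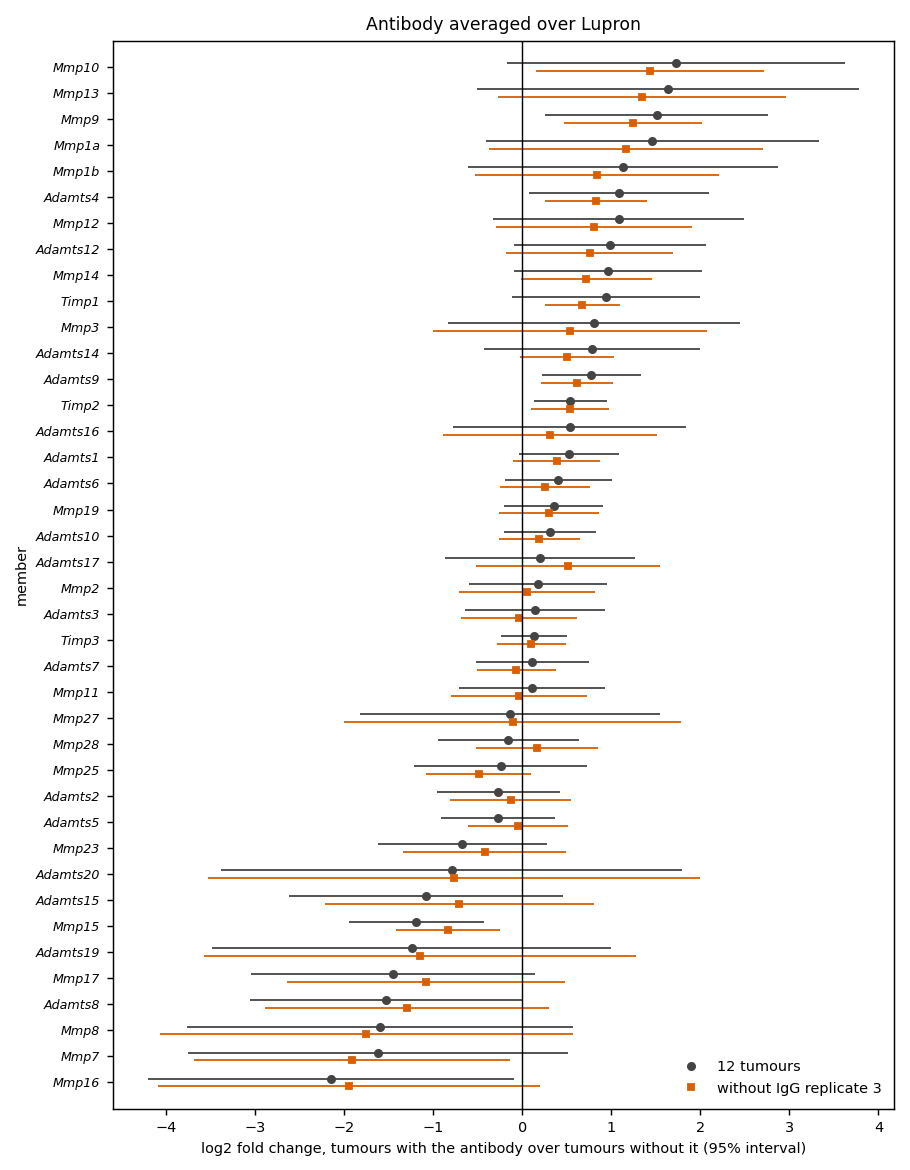
Log2 fold change with its 95% interval of the 40 members, tumours with the antibody over tumours without it averaged over Lupron, from 12 tumours (grey circles) and without IgG replicate 3 (orange squares). Estimates from 12 tumours run from -2.15 (Mmp16) to 1.73 (Mmp10), and no member passed edgeR's adjusted threshold in either fit.

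Among other genes of the pathway, 46 of 52 genes on 5 lists were tested, and 0 passed for the averaged antibody effect by edgeR with 12 tumours (all genes 1.87%). At an unadjusted p under 0.05 there were 7 (all genes 19%), and DESeq2 called 2 (all genes 9.4%). In the plasminogen system, whose protease plasmin activates several MMPs, 0 of 6 tested genes passed. Plat, the tissue plasminogen activator, had 142, 114 and 20.1 in IgG, 199.5, 201 and 227 in anti-CSF1, 136, 107 and 169 in Lupron and 219.6, 220.1 and 190.1 in Lupron/anti-CSF1. Every antibody tumour lay above every tumour without it, as held for 0.703% of all genes. The averaged effect on Plat was 0.90 ± 0.36 (adjusted p = 0.213), which passed without IgG replicate 3 at 0.66 ± 0.15 (adjusted p = 0.033). In that fit 1 of the 46 pathway genes passed, against 3.13% of all genes. Serpine2, an inhibitor of plasminogen activators, gave 0.88 ± 0.42 (adjusted p = 0.279), or 0.62 ± 0.16 without that library (adjusted p = 0.0671).

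Among 9 ADAM sheddases, cell-surface relatives that release membrane proteins, 0 passed by edgeR, and DESeq2 called Adam33 and Adam28. Adam33 gave -3.65 ± 1.16 and Adam28 -3.23 ± 1.04 (edgeR adjusted p = 0.145 and 0.146), while without IgG replicate 3 they gave -2.80 ± 1.11 and -2.16 ± 0.90. Adam33 stood at 7.16 CPM in IgG replicate 3 and at most 2.24 CPM elsewhere. Of 6 ADAMTS-like genes, which lack the protease domain, and papilin, 0 passed, with -0.67 ± 0.27 for Adamtsl4 and -0.89 ± 0.43 for Adamtsl1. Of 10 tested activators, inhibitors and clearance receptors 0 passed, with 0.55 ± 0.22 for Bsg, which induces MMPs, and -1.11 ± 0.48 for the precursor-cutting enzyme Pcsk5. Of 15 tested matrix substrates 0 passed, with 0.62 ± 0.33 and 0.75 ± 0.41 for the laminin chains Lamc1 and Lamb1. In each of the other 6 comparisons 0 of the 46 genes passed by edgeR, with 0 to 10 at an unadjusted p under 0.05, the 10 in anti-CSF1 against IgG (all genes 22.8%). DESeq2 called 4 in that comparison (all genes 11.5%) and 0 in the other 5.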

How the data were processed

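RNA was sequenced in bulk from 12 tumours, 3 in each of 4 groups taken from the sample titles. The authors deposited raw counts per gene symbol, whole numbers with no normalization. The submitters' processing notes name bcl2fastq 2.20.0.422, cutadapt 1.8.1, HTSeq 0.6.1 and build mm10. The sources used here give no aligner, annotation or strand setting. A NuGen Ovation kit made the libraries, per the labels' protocols.

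Counts were analysed with edgeR 4.0.16 in R 4.3.3: filterByExpr for 4 groups (15082 genes kept), TMM scaling, 1 mean per group, robust quasi-likelihood fit and F test, two-sided, Benjamini-Hochberg adjustment over all genes, and a threshold of 0.05. The scripts were tested on simulated data. The standard error of a log2 fold change was taken from the F statistic. Depth was 20584363 to 29965355 counts, so 3 counts, the limit of a count of 0, are 0.101 to 0.172 CPM, for counting error only. CPM per kilobase used the longest coding transcript in GENCODE vM21. Correlations used log2(CPM + 1) and 100000 permutations, two-sided. No pair among 66 library pairs looked like a duplicate. No batches are given.

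Members, lists and tests were chosen with earlier results of these data known. Named with a value in every tumour were the 4 Timp genes, Mmp8, Mmp9, Mmp12 and the highest member of each role class. Where fewer than 5 members were called, so were the 3 with the smallest p and a mean of at least 1 CPM. Of each pathway list, the 2 with the smallest p for the averaged antibody effect were given by that effect. Among those pathway genes only Plat has a value in every tumour. Mmp3, Adamts4, Csf1r and others outside these rules were chosen after their values were seen. Alternatives were RLE or upper-quartile scaling, DESeq2 1.42.0, no or a stricter count filter, compared groups only, a replicate block and leaving out each library. Protein sequences were not used here, and some epithelial marker genes are not reported here.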

Additional observations from a re-analysis of the deposited data

How the results depend on the processing

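The count of 0 members past the threshold was the same in all 7 comparisons with RLE or upper-quartile scaling, no count filter, a filter of 1 CPM, a fit to the compared groups only, and the replicate block, and also without IgG replicate 3 and Lupron replicate 2 together, an alternative chosen after seeing the data. DESeq2 gave 6 members for anti-CSF1 against IgG, 3 for the averaged antibody effect, 1 for the interaction and 1 for Lupron against IgG. Leaving out each library in turn gave 0 to 16 members for anti-CSF1 against IgG, 0 to 9 for the averaged antibody effect and 0 to 4 for Lupron against IgG, the highest each time without IgG replicate 1 and 0 in the other 11 fits, and 0 throughout for the other 4 comparisons. The cause was not tested. Whether the replicate numbers pair the tumours was not settled. Deviations of same-numbered tumours from their group means had correlations from -0.32 to 0.335, 7 of 18 above 0.1. Those of tumours with different numbers ran from -0.507 to 0.427, 10 of 36 above 0.1. These ranges overlap and cannot exclude a pairing. With the replicate block 0 members passed in each comparison, as in the main fit. Of 1144 alternatives for 59 single gene estimates, 1113 kept direction and side of the threshold, 30 passed where the main fit did not, and 1 reversed, Mmp12 in Lupron/anti-CSF1 against Lupron, at -0.226 without Lupron/anti-CSF1 replicate 2, in a range of -0.226 to 0.821 over the fits that leave out a library. Members with few counts, such as Mmp8, are limited by depth.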
